A study of Homo sapiens with 9 samples.

Results

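The 37 nuclear genes examined here encode subunits of respiratory complexes III, IV and V, cytochrome c and an inhibitor of complex V. They were taken by gene name from a written list, a set chosen with earlier results of these data known, and all 37 were found among the 32997 genes of the expression table. Complex III contributed 9 genes, cytochrome c 1 (CYCS), complex IV 11 and complex V 16, the last including the ATP synthase inhibitor ATPIF1. RNA-seq had been done on 9 libraries of total RNA from ES-2, a human ovarian cancer cell line, grown in RPMI-1640 with fetal bovine serum and given no other treatment. The 3 groups of 3 libraries carried an empty vector, expressed OTUB2 (a deubiquitinase) or expressed SNX29P2 (annotated as a pseudogene of SNX29). All comparisons therefore lie within 1 cell line, and the labels name neither the promoter of the vectors nor whether a group was 1 clone. Nor do they state that replicate libraries were independent cultures. The p-values therefore set group differences against the spread between these libraries, which may be only technical.

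Complexes III and IV pass electrons from ubiquinol to cytochrome c and on to oxygen, and pump protons out of the mitochondrial matrix as they do so. Complex V, the ATP synthase, lets the protons flow back and uses the energy to make ATP. A few core subunits of these complexes are encoded in mitochondrial DNA, and the other subunits come from nuclear genes scattered over the chromosomes, so that proteins made from both genomes have to be assembled into each complex. In mammalian cells the nuclear genes share transcription factors, among them NRF1 and GABPA, an ETS-family factor also called NRF2.

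The shared promoter letters are visible in the sequences themselves. RefSeq promoters of build GRCh38.p14 (250 bases before to 50 after the annotated start) were at hand for 30 of the 37 genes, and UQCRB, CYC1, COX6C, ATP5B, ATP5D, ATP5G3 and ATP5J2 were not among them. On either strand, the NRF1 motif GCGCANGCG lay in 10 of the 30 promoters (33.3%), against 8.05% of all 27305 promoters and 15.4% of the 9437 promoters of genes that passed the expression filter. The ETS motif CCGGAAG lay in 12 (40.0%), against 10.7% and 19.8%. The YY1 motif AAGATGGC lay in 4 (13.3%), against 3.03% and 5.7%, and the estrogen-related receptor motif AAGGTCA in 2 (6.67%), against 3.97% and 2.32%. The general SP1 motif GGGCGG lay in 18 (60.0%), against 44.6% and 69.7%. At least 1 of the first 4 motifs was found in 19 of the 30 promoters (63.3%), against 22.6% of all promoters and 36.7% of those of expressed genes. None of these 5 motifs contains another of them. A match of letters describes the window and is neither a measured binding site nor a cause.

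The promoters of the members with the smallest p-values in the comparisons described below (ATP5I and ATP5L), of the member with the highest level (COX8A) and of the only member with NRF1, ETS and YY1 motifs together (ATP5J) are printed 5′ to 3′ on the strand of the gene, with those motifs and the estrogen-related receptor motif in capitals. The ATP5I promoter (chr4:674227-674526, minus strand) held 3 NRF1 motifs and 1 ETS motif, the ATP5J promoter (chr21:25735005-25735304, minus strand) 1 each of NRF1, YY1 and ETS, and the ATP5L (chr11:118401356-118401655, plus strand) and COX8A (chr11:63974370-63974669, plus strand) promoters 1 ETS and 1 estrogen-related receptor motif each.
ATP5I: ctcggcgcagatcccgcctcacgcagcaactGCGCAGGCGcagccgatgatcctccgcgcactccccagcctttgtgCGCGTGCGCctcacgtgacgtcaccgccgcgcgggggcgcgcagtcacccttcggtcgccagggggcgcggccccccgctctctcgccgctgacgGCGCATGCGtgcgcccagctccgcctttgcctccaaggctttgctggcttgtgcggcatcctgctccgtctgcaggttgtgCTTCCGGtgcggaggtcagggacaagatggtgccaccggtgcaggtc
ATP5J: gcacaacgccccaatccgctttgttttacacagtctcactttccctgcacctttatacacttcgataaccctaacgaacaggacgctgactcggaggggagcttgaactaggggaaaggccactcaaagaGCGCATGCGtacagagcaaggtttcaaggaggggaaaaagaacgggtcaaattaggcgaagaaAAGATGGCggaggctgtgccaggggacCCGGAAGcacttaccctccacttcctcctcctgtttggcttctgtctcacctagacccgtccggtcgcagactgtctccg
ATP5L: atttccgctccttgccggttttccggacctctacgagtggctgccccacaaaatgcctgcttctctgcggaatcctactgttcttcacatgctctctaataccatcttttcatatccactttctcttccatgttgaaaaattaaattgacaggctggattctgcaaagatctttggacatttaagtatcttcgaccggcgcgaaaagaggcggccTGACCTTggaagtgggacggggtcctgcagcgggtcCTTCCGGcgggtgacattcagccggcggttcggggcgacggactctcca
COX8A: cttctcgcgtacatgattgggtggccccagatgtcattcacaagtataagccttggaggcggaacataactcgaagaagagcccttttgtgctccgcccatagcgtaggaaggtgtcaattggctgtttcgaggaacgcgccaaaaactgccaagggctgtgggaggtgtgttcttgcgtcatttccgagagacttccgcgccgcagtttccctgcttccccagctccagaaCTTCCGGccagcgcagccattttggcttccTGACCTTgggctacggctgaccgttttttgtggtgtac
ATP5L and COX8A were the only 2 of the 30 with the estrogen-related receptor motif, and both also carried the ETS motif.

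The libraries held 38504854 to 48551215 reads assigned to genes, read back from the RPKM values (reads per kilobase of exon, scaled to the reads in genes). Within a group the log2 values of libraries correlated at 0.971 to 0.981 across genes, and no 2 libraries agreed within sampling noise. OTUB2 lay at 37.6 to 42.6 RPKM in its own group against 1.04 to 1.31 in the vector group, and SNX29P2 at 41.0 to 55.1 against 0 to 0.0665. Of the epithelial markers, KRT8 and KRT18 were expressed (sum over the list 126 to 183 RPKM), while EPCAM and KRT19 lay under 0.1 RPKM in the mean of every group. Of the ovarian lineage markers, WT1 passed the expression filter, and NAPSA lay under 0.1 RPKM. OTUB2 replicate 1 stood apart by traces of leukocyte transcripts: PTPRC had 118 reads there, 2 in SNX29P2 replicate 3 and 0 in the others, CD3E had 34 there and 0 in the others, and CD14 had 38 there and 0 to 6 in the others. CD68 was expressed in every library, so that the summed leukocyte list ran from 31.1 to 32.3 RPKM in the vector group, 31.1 to 36.4 in the OTUB2 group and 28.6 to 33.0 in the SNX29P2 group. PECAM1, an endothelial marker, had 41 reads in that library and 0 to 11 in the others. CDH5 made up most of the endothelial list, whose sum was 17.8 to 23.9 RPKM in the vector group, 22.2 to 22.8 in the OTUB2 group and 20.7 to 22.7 in the SNX29P2 group, with PECAM1 and VWF under 0.1 in the group means. Of the stromal markers, COL1A1 was expressed and PDGFRB lay under 0.1 RPKM. Their sum was 64.6 to 86.0 RPKM in the vector group, 49.3 to 69.2 in the OTUB2 group and 45.5 to 65.0 in the SNX29P2 group, with COL1A1 at a log2 fold change of -0.28 (SE 0.17; adjusted p = 0.814 by limma) and -0.38 (SE 0.17; adjusted p = 0.603) against the vector. The part of these markers in the results below was not tested. For the OTUB2 comparisons, the medians and counts of the main gene sets and the values of the genes with the smallest p are given again without OTUB2 replicate 1.

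All 37 genes were expressed in every library, with 273 to 37185 reads per gene and library, and all passed the filter (at least 0.5 RPKM in at least 3 libraries), as did 16533 genes in all. Their mean levels over the 9 libraries ran from 8.67 RPKM for ATP5I to 379 RPKM for COX8A, with a median of 32.9 RPKM against 5.01 for all genes tested. The lowest member stood at percentile 64.6 of the tested genes. Together they took 0.435% to 0.476% of the reads in genes. The coefficient of variation within groups had a median of 5.26% over the members, from 2.88% for COX4I1 to 12.2% for ATP5D, against 7.53% for the 5768 tested genes of the same range of levels. In bulk RNA, fewer cells and less RNA per cell cannot be told apart.

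Among the complex III genes, UQCRH, the acidic hinge protein beside cytochrome c1, had the highest level, with 91.5, 98.6 and 95.1 RPKM in the vector libraries, 104, 99.8 and 99.0 in the OTUB2 libraries and 104, 96.4 and 93.3 in the SNX29P2 libraries. UQCRB, the ubiquinone-binding small subunit, had the lowest RPKM, with 12.9, 12.4 and 12.1 RPKM in the vector libraries, 12.7, 11.9 and 12.6 in the OTUB2 libraries and 12.8, 13.5 and 12.7 in the SNX29P2 libraries. CYC1, the cytochrome c1 that hands electrons to cytochrome c, read 85.6, 90.0 and 94.6 RPKM in the vector libraries, 96.7, 86.5 and 88.8 in the OTUB2 libraries and 88.8, 81.8 and 84.7 in the SNX29P2 libraries. The OTUB2 values of UQCRH lay just above its vector values, and every other pair of groups overlapped in these 3 genes. The core proteins UQCRC1 and UQCRC2 had means of 41.7 and 21.5 RPKM, the Rieske iron-sulfur protein UQCRFS1 17.9 RPKM, and the small subunits UQCRQ, UQCR10 and UQCR11 34.6, 43.0 and 31.1 RPKM. CYCS, the soluble carrier between complexes III and IV, read 50.7, 60.3 and 58.2 RPKM in the vector libraries, 53.8, 57.6 and 59.3 in the OTUB2 libraries and 55.3, 64.0 and 64.9 in the SNX29P2 libraries. Its lowest value was that of vector replicate 1, and all 3 groups overlapped.

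COX8A, a small membrane subunit of complex IV, had the highest RPKM of all 37 genes, with 338, 358 and 384 RPKM in the vector libraries, 394, 393 and 409 in the OTUB2 libraries and 404, 363 and 366 in the SNX29P2 libraries. COX7A2L, a relative of COX7A2 that joins complexes III and IV into supercomplexes, had the lowest of the complex IV genes, with 11.1, 11.1 and 9.81 RPKM in the vector libraries, 11.5, 11.9 and 11.4 in the OTUB2 libraries and 11.5, 11.8 and 11.0 in the SNX29P2 libraries. COX7A2 itself read 21.3, 23.1 and 26.6 RPKM in the vector libraries, 24.3, 25.9 and 24.5 in the OTUB2 libraries and 23.4, 22.4 and 24.2 in the SNX29P2 libraries. COX7A2 made up 65.6% to 73.1% of the summed RPKM of this pair in the 9 libraries. COX6B1, which caps the cytochrome c side of the complex, read 39.1, 38.6 and 43.1 RPKM in the vector libraries, 40.9, 39.6 and 41.6 in the OTUB2 libraries and 39.3, 35.6 and 39.3 in the SNX29P2 libraries. The remaining complex IV genes had means of 47.1 RPKM (COX4I1), 60.5 (COX5A), 34.0 (COX5B), 83.6 (COX6A1), 17.4 (COX6C), 19.9 (COX7B) and 41.4 (COX7C). The forms of these subunits known from muscle or testis were close to 0, with 1 to 4 reads per library for COX7A1, 0 to 4 for COX6B2 and 0 to 2 for COX8C. COX4I2, COX6A2 and COX7B2 were not analysed here. The 37 genes are not a complete set. NDUFA4, USMG5 and C14orf2, from a list of other subunits and isoforms, had means of 22.4, 42.9 and 10.0 RPKM.

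Of the complex V genes, ATP5B, the catalytic beta subunit, had the highest level, with 313, 322 and 342 RPKM in the vector libraries, 340.4, 329.8 and 349 in the OTUB2 libraries and 341, 315 and 334 in the SNX29P2 libraries. The other subunits of the catalytic head and central stalk lay far below it in RPKM, at means of 34.3 for ATP5A1 (alpha), 70.4 for ATP5C1 (gamma), 43.4 for ATP5D (delta) and 14.5 for ATP5E (epsilon). Subunit c, which forms the rotating ring in the membrane, is encoded by 3 genes whose mature proteins are the same. ATP5G1 read 24.7, 25.5 and 29.4 RPKM in the vector libraries, 27.3, 27.1 and 28.3 in the OTUB2 libraries and 26.8, 24.1 and 28.3 in the SNX29P2 libraries. ATP5G2 read 31.5, 35.9 and 35.8 RPKM in the vector libraries, 33.1, 33.0 and 33.0 in the OTUB2 libraries and 33.3, 30.8 and 29.8 in the SNX29P2 libraries. ATP5G3 read 18.4, 19.3 and 21.5 RPKM in the vector libraries, 21.4, 20.6 and 21.4 in the OTUB2 libraries and 20.1, 20.1 and 20.5 in the SNX29P2 libraries. ATP5G2 thus held 37.9% to 44.5% of the summed RPKM of the 3 genes, ATP5G1 31.6% to 36.1% and ATP5G3 23.9% to 26.8%. The peripheral stalk genes ATP5F1, ATP5H, ATP5J and ATP5O had means of 63.4, 18.6, 29.7 and 24.5 RPKM. The membrane subunits ATP5I, ATP5J2 and ATP5L, called e, f and g and involved in the dimers of the enzyme, had 8.67, 28.7 and 19.1 RPKM. ATPIF1, which blocks ATP hydrolysis by the enzyme when the proton gradient fails, read 28.2, 28.1 and 29.2 RPKM in the vector libraries, 31.9, 29.3 and 30.6 in the OTUB2 libraries and 30.9, 28.5 and 27.7 in the SNX29P2 libraries. Its 3 OTUB2 values lay above the vector values, the lowest only just.

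**Figure D1:**
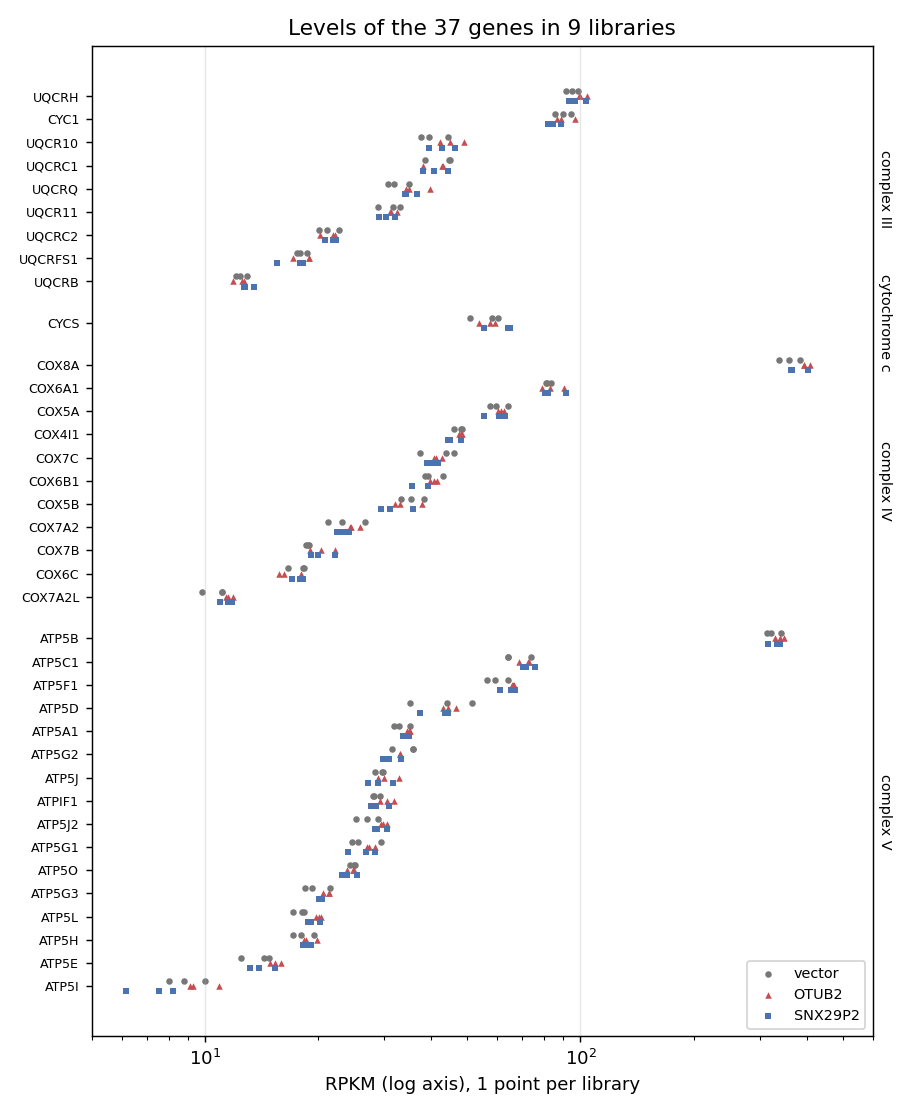
Level of each of the 37 genes in the 9 libraries (x axis, RPKM on a log scale; points are single libraries, coloured by group), ordered by mean within complex III, cytochrome c, complex IV and complex V. The genes span 8.67 to 379 RPKM in the mean, and the points of the 3 groups lie close together within each gene.

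The order of levels depends on the length by which reads are divided. RPKM here divides by all annotated exon bases of a gene, and this length was 1.0 to 15.1 times the median length of the gene's protein-coding transcripts in GENCODE 29, with a median of 3.20 times. Divided by the transcript length instead, the levels ran from 17.9 (UQCRFS1) to 419 (ATP5B), and the fold range shrank from 43.7 to 23.4. UQCRB, with 9715 annotated exon bases and a median transcript of 645, moved from rank 35 to rank 8. UQCR10, whose 975 exon bases lie near its transcript length of 750, moved from rank 12 to rank 34. The 3 subunit c genes became near equal, with 32.6% to 38.8% for ATP5G2, 34.1% to 37.6% for ATP5G3 and 27.2% to 30.6% for ATP5G1. The Spearman correlation between both orders was 0.567 across the 37 genes, given as a description. The length is the same in every library, so differences between groups within a gene do not depend on it, apart from the pseudocount of 0.1.

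**Figure D2:**
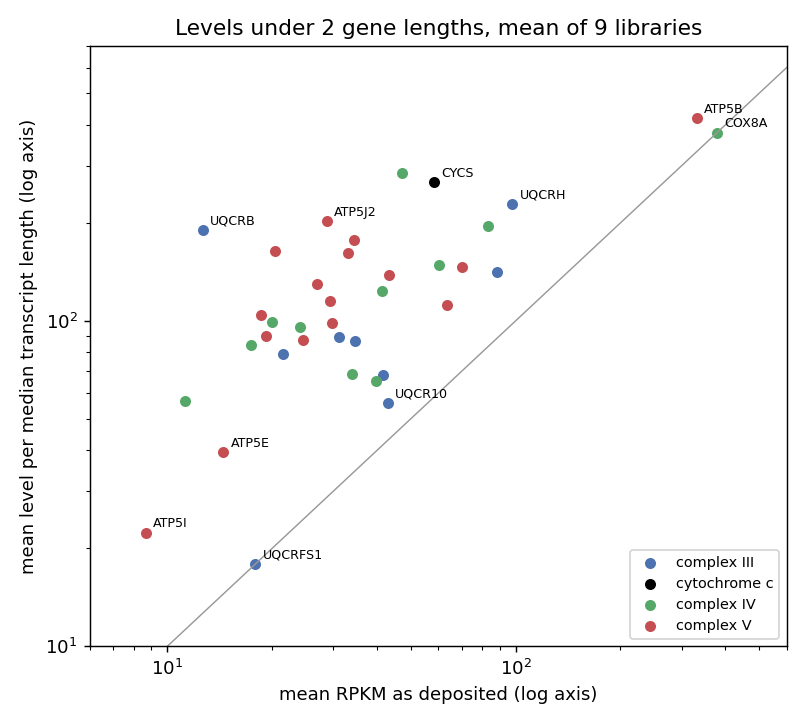
Mean level of each gene over the 9 libraries per kilobase of all annotated exons (x axis, RPKM, log scale) against the same reads per kilobase of the median protein-coding transcript (y axis, log scale), coloured by complex. Points above the diagonal, such as UQCRB, gain most from the shorter length, and UQCRFS1 and COX8A lie on it.

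Some RPKM values can hold reads of another gene. Of the 37 genes, 17 share annotated exon bases with another gene of the table, and 10 share more than 10% of their bases. The largest share was that of ATP5I (chr4:672436-674338, minus strand), with 61.6% of its exon bases inside exons of MYL5, a myosin light chain gene on the other strand (chr4:673580-682033). Over the 9 libraries the table gave MYL5 97.3% as many reads as ATP5I. The table likewise gave the read-through gene ATP5J2-PTCD1 107% as many reads as ATP5J2, and AP000304.12 103% as many as ATP5O. GABPA, which overlaps the start of ATP5J on the other strand, had 108% as many reads as ATP5J. How reads on shared bases were assigned is not given in the sources used here, so the reads of such pairs cannot be told apart. Pseudogene copies named after 17 of the genes (41 rows) took few reads: 3.37% as many as the parent for UQCRFS1, 1.17% for COX7B and under 1% for the other parents.

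With OTUB2 expression, no gene of complexes III to V passed the test against the vector. The log2 fold change (on the log2(RPKM + 0.1) scale) was above 0 for 30 genes and below 0 for 7, with a median of 0.060. Of all genes tested, 52.0% were above 0, and the median was 0.0067. Among the 5768 tested genes of the same range of levels, 61.2% were above 0 and the median was 0.030. None of the 37 was called by limma at an adjusted p under 0.05, where 0.0181% of all genes were called, OTUB2 itself among them. None was called by limma's voom variant on the reads. At an unadjusted p under 0.05 there were 4 of the 37 (2 with voom), against 6.73% of all genes. Complex V had 14 of 16 genes above 0 (median 0.077), complex III 7 of 9 (median 0.021), complex IV 8 of 11 (median 0.027), and CYCS lay at 0.016. Without OTUB2 replicate 1, complex III had 4 of 9 above 0 (median -0.0019), complex IV 7 of 11 (median 0.014) and complex V 14 of 16 (median 0.066).

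ATP5L (chr11:118401154-118431496), the g subunit of the membrane part, had the smallest p of the members in this comparison. It read 17.2, 18.2 and 18.4 RPKM in the vector libraries, 20.4, 19.7 and 20.1 in the OTUB2 libraries and 20.3, 18.9 and 19.1 in the SNX29P2 libraries. All OTUB2 values and all SNX29P2 values lay above all vector values. The log2 fold change was 0.17 (SE 0.059; adjusted p = 0.698 by limma) with OTUB2 and 0.12 (SE 0.059; adjusted p = 0.652) with SNX29P2, against the same vector libraries. ATP5F1, the b subunit of the peripheral stalk, read 56.4, 59.0 and 64.0 RPKM in the vector libraries, 66.1, 66.4 and 65.8 in the OTUB2 libraries and 65.3, 61.0 and 66.8 in the SNX29P2 libraries, and its OTUB2 values lay above the vector values. Its log2 fold change with OTUB2 was 0.15 (SE 0.062; adjusted p = 0.725). ATP5J2, the f subunit, read 28.8, 25.3 and 27.0 RPKM in the vector libraries, 29.9, 29.4 and 30.5 in the OTUB2 libraries and 30.5, 28.4 and 28.8 in the SNX29P2 libraries. Its OTUB2 values again lay above all vector values, and its log2 fold change was 0.15 (SE 0.064; adjusted p = 0.730). For COX8A, whose levels stand above, the log2 fold change was 0.15 (SE 0.065; adjusted p = 0.737). Leaving out OTUB2 replicate 1 gave 0.15 for ATP5L, 0.15 for ATP5F1, 0.15 for ATP5J2 and 0.16 for COX8A. Part of the exons of all 4 genes is shared with other genes (7.72%, 10.3%, 8.57% and 34.5% of their bases, in the order given).

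ATP5E, the epsilon subunit, read 12.5, 14.3 and 14.8 RPKM in the vector libraries, 15.9, 14.9 and 15.4 in the OTUB2 libraries and 15.3, 13.2 and 13.9 in the SNX29P2 libraries, with the OTUB2 values above the vector values and a log2 fold change of 0.15 (SE 0.085; adjusted p = 0.802), which was 0.078 without vector replicate 1. In all, 9 genes had every OTUB2 library above every vector library (UQCRH, COX7A2L, COX7B, COX8A, ATP5E, ATP5F1, ATP5J2, ATP5L and ATPIF1) and 0 had every one below. Over all genes tested, 5.9% were above without overlap and 4.91% below. Without OTUB2 replicate 1, 9 genes lay above and 2 below without overlap, against 10.7% of all genes above and 1451 of 16533 below. The lowest values belonged to COX6C (-0.088), ATP5G2 (-0.056), COX5B (-0.054) and UQCRC1 (-0.047), none of them past the test; ATP5G2 ran from -0.12 to -0.025 with 1 library left out. The 95% intervals of the 37 genes ran from -0.27 to 0.41 at their outermost bounds, which correspond to 1.20-fold lower and 1.33-fold higher. Quantile normalization lowered the median to 0.025 and left 21 of 37 genes above 0. Without OTUB2 replicate 1 the median was 0.057 with 26 of 37 above 0, and without vector replicate 1 it was 0.039 with 24 of 37. The 20 genes that share no exon bases with another gene had a median of 0.040, with 15 above 0.

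With SNX29P2 expression, the genes lay on both sides of the vector group in nearly equal numbers. The log2 fold change was above 0 for 20 genes and below 0 for 17, with a median of 0.025, against 53.6% above 0 and a median of 0.014 over all genes tested. Among the 5768 tested genes of the same range of levels, 56.9% were above 0 and the median was 0.021. None of the 37 was called by limma (0.0363% of all genes were, SNX29P2 itself among them) or by voom. At an unadjusted p under 0.05 there was 1 of the 37 (0 with voom), against 8.21% of all genes. Complex III had 5 of 9 genes above 0 (median 0.027), complex IV 4 of 11 (median -0.016) and complex V 10 of 16 (median 0.026). CYCS had a log2 fold change of 0.12 (SE 0.087; adjusted p = 0.754), which was 0.048 without vector replicate 1 and 0.20 without SNX29P2 replicate 1.

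ATP5I, the e subunit, had the smallest p here. It read 8.03, 8.79 and 10.0 RPKM in the vector libraries, 10.9, 9.27 and 9.11 in the OTUB2 libraries and 8.21, 7.56 and 6.15 in the SNX29P2 libraries, from 318 to 389 reads in the vector libraries and 273 to 354 in the SNX29P2 libraries. SNX29P2 replicate 1 lay inside the vector range, and replicates 2 and 3 lay below it. The log2 fold change was -0.29 (SE 0.13; adjusted p = 0.602), and it was -0.17 without SNX29P2 replicate 3 and -0.38 without SNX29P2 replicate 1. MYL5, which shares most of the exon bases of ATP5I, had a log2 fold change of -0.36 (SE 0.13; adjusted p = 0.551) in the same comparison, with 331, 331 and 368 reads in the vector libraries and 328, 275 and 257 in the SNX29P2 libraries. Which of the 2 genes the reads came from cannot be told apart in this table.

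COX7B (0.12, SE 0.077; adjusted p = 0.720) and ATP5L were the 2 genes with all SNX29P2 values above all vector values, and 0 genes had all values below. Over all genes, 6.13% were above without overlap and 5.53% below. COX5B, the zinc-binding subunit of complex IV, had the lowest value after ATP5I, at -0.15 (SE 0.094; adjusted p = 0.717), followed by ATP5G2 at -0.14 (SE 0.070; adjusted p = 0.665). The outermost bounds of the 95% intervals were -0.58 and 0.32, or 1.49-fold lower and 1.25-fold higher; without ATP5I the lower bound was -0.36. The median changed sign without SNX29P2 replicate 1 (-0.012, with 15 of 37 genes above 0) and without vector replicate 1 (-0.0094, with 18 of 37). The 20 genes that share no exon bases with another gene had a median of -0.0025, with 9 above 0. The 17 that share some had 0.037, with 11 above 0.

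**Figure D3:**
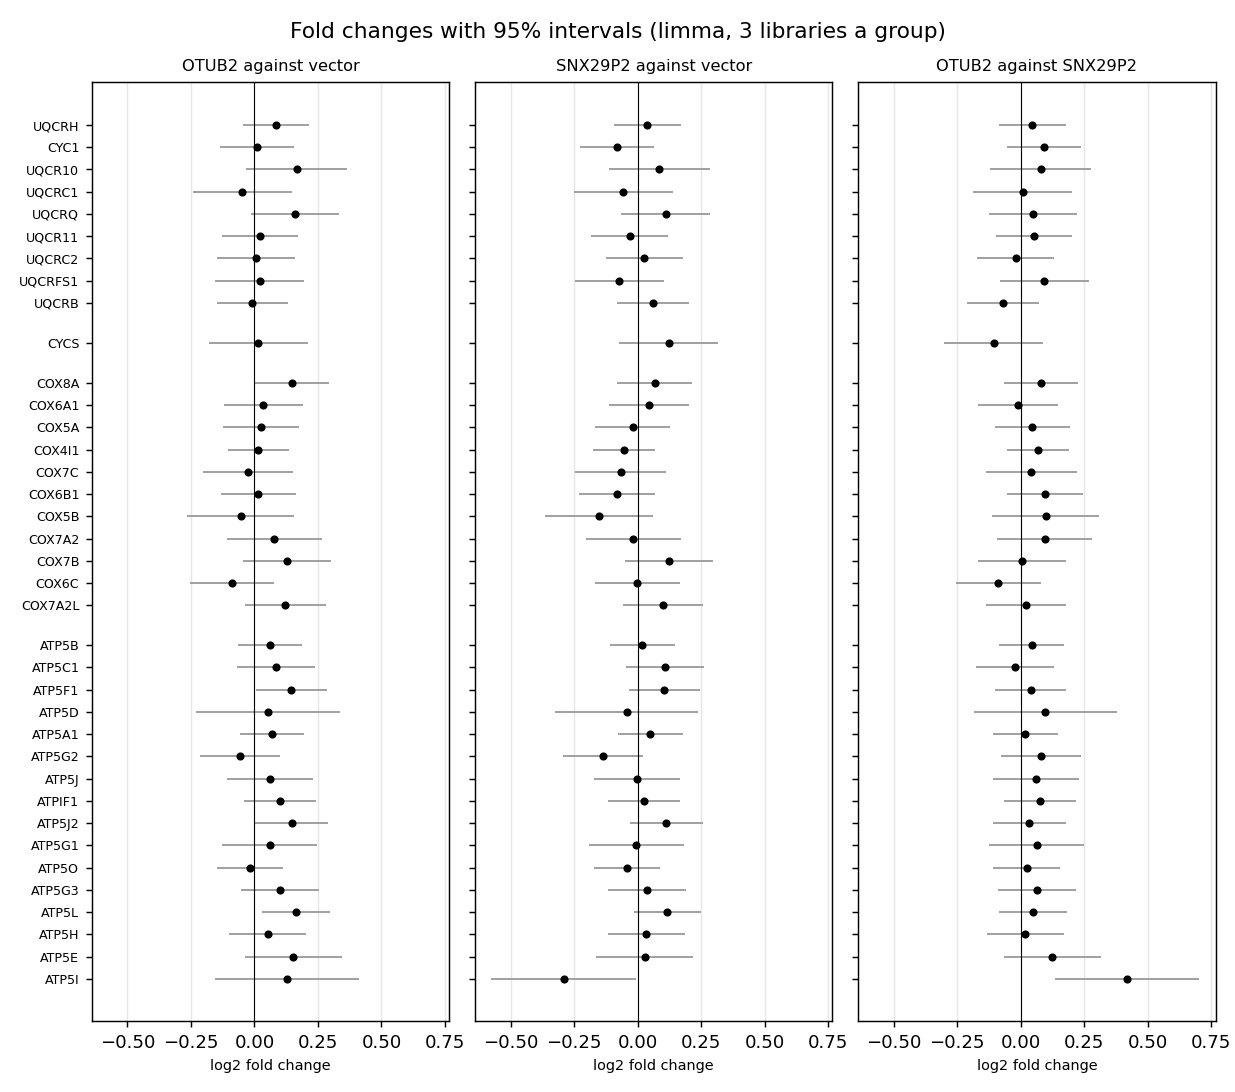
Log2 fold change of each gene with its 95% interval (x axis, log2(RPKM + 0.1) scale) in the 2 comparisons with the vector and in that of OTUB2 with SNX29P2, with the genes blocked by complex and ordered by level. Most intervals cross 0; in the first panel 30 of 37 points lie to the right of 0, in the second 20, in the third 31.

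Between the OTUB2 and SNX29P2 groups, compared directly, no gene of the set passed the test. The fit was the same as above and held no term for the library numbers. The log2 fold change was above 0 (higher with OTUB2) for 31 of the 37 genes, with a median of 0.048, against 48.6% above 0 and a median of -0.0036 over all genes tested. Among the 5768 tested genes of the same range of levels, 56.0% were above 0 and the median was 0.012. None was called by limma (0.0242% of all genes were, OTUB2 and SNX29P2 themselves among them) or voom. At an unadjusted p under 0.05 there was 1 of the 37 with either method, against 2.43% of all genes. That gene was ATP5I, with 0.42 (SE 0.13; 95% interval 0.13 to 0.70; adjusted p = 0.9999 by limma). All 3 OTUB2 values of ATP5I (9.11 to 10.9 RPKM) lay above all 3 SNX29P2 values (6.15 to 8.21 RPKM). Without OTUB2 replicate 1 the log2 fold change was 0.34. MYL5 had 0.44 (SE 0.13) in the same comparison, and 0.38 without that library. COX6B1, COX7A2 and ATP5G3 were the other genes without overlap, all higher with OTUB2, with log2 fold changes of 0.097 (SE 0.066), 0.095 (SE 0.084) and 0.064 (SE 0.068) and adjusted p-values of 0.9999 each. The value of COX6B1 was 0.050 without SNX29P2 replicate 2. Over all genes, 4.3% were above without overlap and 4.05% below. Without OTUB2 replicate 1, 4 of the 37 lay above and 2 below without overlap, against 7.8% of all genes above and 1326 of 16533 below. CYCS had the lowest value, -0.11 (SE 0.087), followed by COX6C (-0.088) and UQCRB (-0.068), and CYC1 had 0.090 (SE 0.065). With 1 library left out, CYCS ran from -0.18 to -0.065 and UQCRB from -0.087 to -0.039. CYC1 was 0.043 without OTUB2 replicate 1. Apart from ATP5I, the 95% intervals ended between -0.30 and 0.38. The median was 0.033, with 29 of 37 genes above 0, without OTUB2 replicate 1 and 0.019 without SNX29P2 replicate 2. It was 0.079 without SNX29P2 replicate 1.

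Whole libraries stood high or low across the genes, within groups as well as between them. The mean of the 37 log2 levels, each centred on its own mean over the 9 libraries, was -0.077, -0.027 and 0.039 in the vector libraries, 0.073, -0.0015 and 0.037 in the OTUB2 libraries and 0.044, -0.051 and -0.036 in the SNX29P2 libraries. All 3 groups overlapped on this mean. Between same-numbered libraries, which were taken as pairs for these groups, OTUB2 minus SNX29P2 was 0.029, 0.049 and 0.073, above 0 in all 3 pairs. The complex I genes had 0.042, 0.040 and 0.084. With 3 pairs and a set chosen with results known, these differences carry no test. OTUB2 replicate 1 had 34 of 37 genes above their own mean and the highest value of 10 of them. Vector replicate 1 had 7 above and the lowest value of 14. Vector replicate 3 had 27 above and the highest value of 9. The leukocyte traces in OTUB2 replicate 1 stand beside this result, and their part in it was not tested. The 37 nuclear genes of complex I had their lowest and highest mean in the same libraries, with -0.081 in vector replicate 1 and 0.080 in OTUB2 replicate 1. Tested genes of the same range of levels moved partly the same way, by the median of their centred values. That median fell below 0 for vector replicates 1 and 2 (-0.0268 and -0.0275) and reached 0.0045 for vector replicate 3. Every OTUB2 library had a median above 0, from 0.0133 to 0.0146. SNX29P2 replicates 1, 2 and 3 had 0.011, -0.0017 and -0.0029. How much this shared shift adds to the library means of complexes III to V was not tested.

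In the group means of vector and OTUB2, the mitochondrially encoded partners stood the other way. In vector replicate 3, OTUB2 replicate 2 and SNX29P2 replicate 3, the nuclear and mitochondrial means had the same sign. MT-CYB of complex III, MT-CO1, MT-CO2 and MT-CO3 of complex IV and MT-ATP6 and MT-ATP8 of complex V averaged 0.18, 0.067 and 0.063 in the vector libraries, -0.15, -0.078 and -0.026 in the OTUB2 libraries and -0.070, 0.029 and -0.017 in the SNX29P2 libraries, on the same centred log2 scale. With OTUB2, 0 of the 6 had a log2 fold change above 0, and the median was -0.20. The median was -0.19, with 1 of the 6 above 0, without OTUB2 replicate 1. MT-CO2 had the smallest p, with 7872, 7899 and 7087 RPKM in the vector libraries and 6486, 6271 and 6523 in the OTUB2 libraries, which do not overlap. Its log2 fold change was -0.24 (SE 0.064; adjusted p = 0.554 by limma), and -0.25 without OTUB2 replicate 1. With SNX29P2, 1 of the 6 lay above 0 and the median was -0.15, and MT-CO3 had the smallest p (-0.21, SE 0.070; adjusted p = 0.522). Between OTUB2 and SNX29P2 the median was -0.061, with 0 of 6 above 0, and -0.018 with 1 of 6 above 0 without OTUB2 replicate 1. None of the 6 was called in any comparison. Against the vector, 4 of the 6 had no overlap with OTUB2 and 4 with SNX29P2, where 1787 and 1927 of all 16533 genes had none. At an unadjusted p under 0.05 by limma there were 4 and 3, against 6.73% and 8.21% of all genes. Between OTUB2 and SNX29P2 both counts were 0, against 1381 genes and 2.43%. Without OTUB2 replicate 1, 4 of the 6 lay below the vector without overlap, against 1451 of all genes. The nuclear mean minus the mitochondrial mean was -0.26, -0.094 and -0.024 in the vector libraries, 0.22, 0.077 and 0.063 in the OTUB2 libraries and 0.11, -0.080 and -0.020 in the SNX29P2 libraries. On this difference every OTUB2 library lay above every vector library, with the most extreme values in replicate 1 of both groups, and this held for OTUB2 replicates 2 and 3 alone, while the SNX29P2 libraries overlapped the vector libraries. This difference was chosen after the values of both sets had been seen and carries no test.

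**Figure D4:**
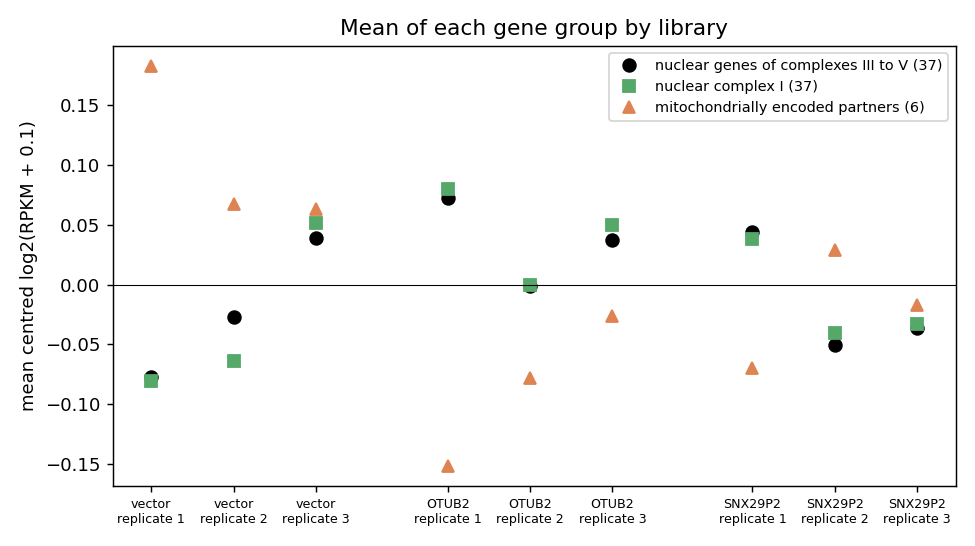
Mean centred log2 level per library (y axis) of the 37 nuclear genes of complexes III to V, the 37 nuclear genes of complex I and the 6 mitochondrially encoded partners, for the 9 libraries (x axis). The nuclear sets are lowest in vector replicate 1 and highest in OTUB2 replicate 1, and the mitochondrial set has its highest and lowest value in these libraries in turn.

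Genes around the complexes gave values of similar size, and none was called in any comparison. Of the 24 assembly factors of complex IV, 18 lay above 0 with OTUB2 (median 0.068), 18 with SNX29P2 (median 0.047) and 12 between OTUB2 and SNX29P2 (median -0.0023). COX17, a copper chaperone of this assembly, had the smallest p with OTUB2, at 0.22 (SE 0.088; adjusted p = 0.709), and COX11, which delivers copper to MT-CO1, with SNX29P2, at 0.22 (SE 0.080; adjusted p = 0.545). The 6 assembly factors of complex III had 4 above 0 with OTUB2 (median 0.014) and 2 with SNX29P2 (median -0.022), and the 3 of complex V had 3 and 2. Nuclear complex I genes had 30 of 37 above 0 with OTUB2 (median 0.077), 21 with SNX29P2 (median 0.019) and 30 between OTUB2 and SNX29P2 (median 0.072). Complex II, which has no mitochondrially encoded subunit, had 4 of 4 above 0 in both comparisons with the vector (medians 0.093 and 0.082). Without OTUB2 replicate 1, the comparison of OTUB2 with the vector had 15 of 24 assembly factors of complex IV above 0 (median 0.082), 3 of 6 of complex III (median -0.0079), 26 of 37 complex I genes (median 0.066), COX17 at 0.17 and 4 of 4 complex II genes (median 0.079). Between OTUB2 and SNX29P2, leaving out the same library gave 28 of 37 complex I genes above 0 (median 0.047). For the assembly factors of complex IV it gave 13 of 24 (median 0.0046). The 4 carriers that exchange ADP, ATP and phosphate had 2 above 0 with OTUB2 and 1 with SNX29P2.

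No regulator of respiratory genes was called. Of 9 listed, 8 were tested and PPARGC1A did not pass the expression filter. With OTUB2, 3 of the 8 lay above 0 (median -0.020), and PPARGC1B had the smallest p (-0.26, SE 0.20; adjusted p = 0.867). Leaving out OTUB2 replicate 1, 5 of the 8 lay above 0 (median 0.0036), and PPARGC1B was at -0.19. With SNX29P2, 5 of the 8 lay above 0 (median 0.014). TFAM, which packages and transcribes mitochondrial DNA, had the smallest p there, with 20.0, 20.4 and 19.0 RPKM in the vector libraries and 21.1, 26.1 and 25.6 in the SNX29P2 libraries. These do not overlap, and the log2 fold change was 0.29 (SE 0.12; adjusted p = 0.586 by limma). In all, 2 of the 8 had no overlap in this comparison, against 1927 of 16533 genes tested. The other was GABPA, at 0.18 (SE 0.076; adjusted p = 0.589 by limma), whose lowest SNX29P2 value (12.3 RPKM) lay only just above its highest vector value (12.27 RPKM). The members whose promoters held the NRF1 motif had a median of 0.029 with OTUB2 (7 of 10 above 0) and -0.035 with SNX29P2 (3 of 10), and the 20 without it 0.074 (18 above 0) and 0.031 (13 above 0). With the ETS motif the medians were 0.057 (11 of 12 above 0) and 0.016 (6 of 12), and for the 18 without it 0.065 (14 above 0) and 0.026 (10 above 0). These are descriptions of overlapping sets of few genes, with no test.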

How the data were processed

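The deposited table held RPKM values for 32997 genes in 9 libraries, computed by the authors. The submitters' processing notes name build GRCh38, and which aligner, counter, annotation release and strand setting were used is not given in the sources read. For 100% of values under 1000 reads, whole reads were recovered within 0.05 reads, and 38504854 to 48551215 reads lay in genes per library. No count model was the main test because the unit is RPKM. Genes with at least 0.5 RPKM in 3 libraries (16533) were fitted as log2(RPKM + 0.1) with limma 3.58.1 in R 4.3.3 (trended variance, group as the only term, all 9 libraries in 1 fit), and p-values were adjusted by Benjamini-Hochberg over all of them. The fit was tested on simulated data first. Python 3.11.15 with pandas 2.3.3, numpy 2.4.6 and matplotlib 3.10.9 was used for the rest. Motifs were counted as exact letters on both strands, and promoters were matched by symbol.

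The members, gene lists and tests were chosen with earlier results of these data known. Values in every library are given for the 4 members with the smallest p in each comparison, the highest and lowest member of each complex, the subunit c genes, COX7A2, COX7A2L, ATPIF1 and CYCS. Other lists are given by counts, medians and the gene with the smallest p. A lineage marker is not reported here. As a check of pairing, deviations from group means correlated at 0.27, 0.26 and 0.15 between same-numbered OTUB2 and SNX29P2 libraries. The numbers were therefore taken to pair these groups when library means were compared, though the labels do not say what a number stands for. The main fit leaves this pairing out, so its SEs, intervals and p-values are unpaired.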

Additional observations from a re-analysis of the deposited data

How the results depend on the processing

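Across the other settings run (pseudocounts of 1 and 0.01, other filters, median-of-ratios and quantile scaling, robust variances, fits to the compared groups alone, the replicate block, voom on the recovered reads, and each library left out), none of the 37 genes was called in any comparison. Of 918 values of the 18 genes given in full, 27 changed sign. In 26 of these the reported value was under 0.05 in size, and the largest value after the change was 0.072. The median over the 37 genes ran from 0.039 to 0.072 with OTUB2 and from -0.012 to 0.041 with SNX29P2 when 1 library was left out; between OTUB2 and SNX29P2 it ran from 0.019 to 0.079. The count of all genes called with OTUB2 (3) was 7 with no filter, 1 with only the compared groups, 1 without the libraries numbered 2 (a setting chosen after seeing the data) and 1 to 8 with 1 library left out. With SNX29P2 (6) it was 1 with a filter of 1 RPKM in 6 libraries, 10 with voom, 3 without the libraries numbered 2 and 4 to 8 with 1 library left out. Between OTUB2 and SNX29P2 (4) it was 1 with the stricter filter and 4 to 5 with 1 library left out. The stricter filter removes SNX29P2 itself, which passed 1 RPKM only in its own group, so these lower counts partly follow from the filter. With the replicate block, 4, 9 and 4 genes were called in the 3 comparisons, against 3, 6 and 4 in the main fit. Of the 37 genes, 0 were among them. For ATP5L with OTUB2, the adjusted p by limma was 0.334 with the block, against 0.698 in the main fit. Same-numbered libraries correlated at 0.051, 0.19 and 0.14 between vector and OTUB2 and at -0.018, 0.15 and 0.10 between vector and SNX29P2, so the numbers were not taken to pair those groups. The highest of these values lies above the lowest value of the groups that were taken as pairs, so the line between them is not sharp.

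Quantile normalization gave -0.022 for COX6B1, -0.028 for CYC1 and -0.020 for CYCS with OTUB2. Without the libraries numbered 2, UQCRB was 0.017 with OTUB2, ATP5G1 0.034 with SNX29P2 and ATP5F1 -0.0021 between OTUB2 and SNX29P2. With 1 library left out, these ranges crossed 0: with OTUB2, COX6B1 -0.014 to 0.065, CYC1 -0.038 to 0.045, CYCS -0.059 to 0.066 and UQCRB -0.029 to 0.022; with SNX29P2, ATP5B -0.0094 to 0.055, ATP5E -0.047 to 0.077, ATP5G1 -0.056 to 0.071, ATP5G3 -0.010 to 0.10, ATPIF1 -0.021 to 0.059, COX7A2 -0.090 to 0.072 and UQCRH -0.0032 to 0.072; between OTUB2 and SNX29P2, ATP5G1 -0.00020 to 0.12 and COX7A2L -0.0062 to 0.044. The cause was not tested for any of these. The planned quasi-likelihood count test was not run, because the values are RPKM. The 273 to 436 reads of ATP5I per library limit its precision, and overlapping genes limit what 17 of the 37 values stand for.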
